A study of Homo sapiens with 42 samples.

Results

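The arrays described here measured the first time point after a hairpin against BMI1 was switched on in RPMI-8226, an established human line of multiple myeloma, the malignancy that arises in plasma cells. They are the 6 arrays, of 42 in the series, that carry the BMI1-shRNA label and the 24 h label: 3 with doxycycline and 3 without. In the dosed group, cells stably infected with an inducible short hairpin RNA against BMI1 were given doxycycline at 100 ng/ml for 24 h, and in the undosed group the same line was kept for 24 h without it. A line with an inducible control hairpin, with and without doxycycline for 24 h (3 arrays each), served as the check on the drug, and the BMI1-shRNA line was followed to 32 and 48 h. All cells carried a stably integrated hairpin construct. A single BMI1 hairpin in a single line was used, so the loss of BMI1 and other effects of that hairpin cannot be told apart. The labels number the replicates without naming separate cultures. The p-values rest on the spread between arrays of a group, pooled over all 42 arrays of the series, and this spread may be technical.

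BMI1 (also called PCGF4) is a subunit of Polycomb repressive complex 1, PRC1, in which it partners the ubiquitin ligases RING1 and RNF2 and stimulates the ubiquitination of histone H2A at silenced genes. PRC1 acts beside PRC2, whose EZH2 subunit methylates histone H3, and both keep developmental regulators such as the HOX genes off. The CDKN2A locus, which encodes cell cycle inhibitors, is the best known BMI1 target in many cell types. Malignant plasma cells depend on a plasma cell programme led by IRF4, PRDM1 and XBP1, on signals such as interleukin 6, and on a balance of pro-survival and pro-apoptotic BCL2 proteins.

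Values are MAS5 signals, a linear intensity per probe set scaled to a common target on each array, and each gene is given by its brightest retained probe set. The median probe set signal of the 24 h arrays was 16.6 to 19.5, and arrays of a group correlated at 0.982 to 0.985 across genes, which are not independent replicates. Dosed and undosed arrays of the same line correlated at 0.981 to 0.985, a range taken over both lines at 24 h. The GAPDH 3-prime to 5-prime ratio, a sign of RNA quality, was 0.919 to 0.975 in dosed and 0.906 to 0.958 in undosed arrays of the BMI1-shRNA line. Summed signals of 10 plasma cell markers were 20290 to 22494 in dosed and 21679 to 24652 in undosed arrays. One of these markers, SLAMF7, was near background, at a mean of 2.63 in dosed and 6.13 in undosed arrays. The T and NK cell markers summed to 85.5 to 136.5 in dosed and 76.8 to 127.8 in undosed arrays, the monocyte markers to 65.8 to 99.9 and 65.5 to 82.4, the erythroid markers to 68.8 to 82.6 and 65.4 to 82.4, and the fibroblast markers to 157 to 195 and 135 to 210. The defining genes CD3D, CD14, LYZ and COL3A1 had means under 10, while COL1A1 averaged 115 in dosed and 118 in undosed arrays, CD8A 35.6 and 44.4, CSF1R 26.4 and 24.5, and CD3E 21.3 and 8.53. The part of these cell types in the results was not tested. The mature B cell markers summed to 606 to 700 in dosed and 702 to 708 in undosed arrays, mostly from BLK, while PAX5 averaged 29.6 and 28.9. The epithelial markers summed to 5338 to 6325 in dosed and 5758 to 6516 in undosed arrays, because EPCAM (3440 and 3376) and KRT18 (1995 and 2330) are bright in these cells.

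BMI1 itself checked the labels. Its only probe set, which also matches the COMMD3-BMI1 readthrough, read 168.6, 218.1 and 234.0 in the dosed arrays, against 963.4, 758.3 and 1058.9 in the undosed arrays. The groups lay far apart, and the mean of 207 ± 34.1 in dosed cells was 4.48-fold below the 927 ± 154 of undosed cells (SD, n = 3 each). On the scale log2(signal + 5.4), used for every difference below, BMI1 fell by 2.13 ± 0.10 (SE; limma, adjusted p = 5.11e-18). In the control-shRNA line it read 1364, 1333 and 1298 with doxycycline and 1229, 1257 and 1206 without, a difference of 0.11 ± 0.10 that did not pass the test. The undosed BMI1-shRNA arrays lay below all 6 control-line arrays.

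Doxycycline for 24 h lowered 160 genes in the BMI1-shRNA line and raised 78, of 14705 tested. Beside BMI1 itself, the lowest falls with a mean signal of 50 or more in either group were IDH1, the NADP-dependent isocitrate dehydrogenase of the cytosol, EVI5, a regulator of Rab GTPases and cytokinesis, and SFXN1, which carries serine into mitochondria. Among rises with such signals the largest were TMEM147-AS1, an antisense RNA, and IFIT1, an interferon-induced gene. EVI5, SLITRK5 and ASAH2B reached 50 only without doxycycline, and IFIT1 (means of 67.3 dosed and 34.9 undosed) and FAM13A only with it. The 238 genes were 1.62% of those tested (adjusted p under 0.05 by limma, Benjamini-Hochberg over all genes), with 1.09% lower and 0.53% higher. In 237 of them the 3 dosed and 3 undosed arrays did not overlap, against 18% of all genes tested. Most changes were modest: the median was -0.41 among falls and 0.36 among rises, beside 0.02 over all genes, and 16 genes moved by 2-fold or more, 12 of them down. The genes that fell had a median undosed signal of 699, those that rose 296, and all genes tested 126. The number of calls was 139 without dosed replicate 1, 139 without dosed replicate 2, and 149, 153 and 156 without undosed replicates 1, 2 and 3. The rises were the less stable: 32, 23 and 34 passed without dosed replicates 1, 2 and 3, and 43, 38 and 47 without undosed replicates 1, 2 and 3, against 78 with all arrays. The falls numbered 106 to 131 over the same 6 fits, against 160. In RNA from whole cultures, fewer cells of a kind and less RNA per cell cannot be told apart.

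**Figure D1:**
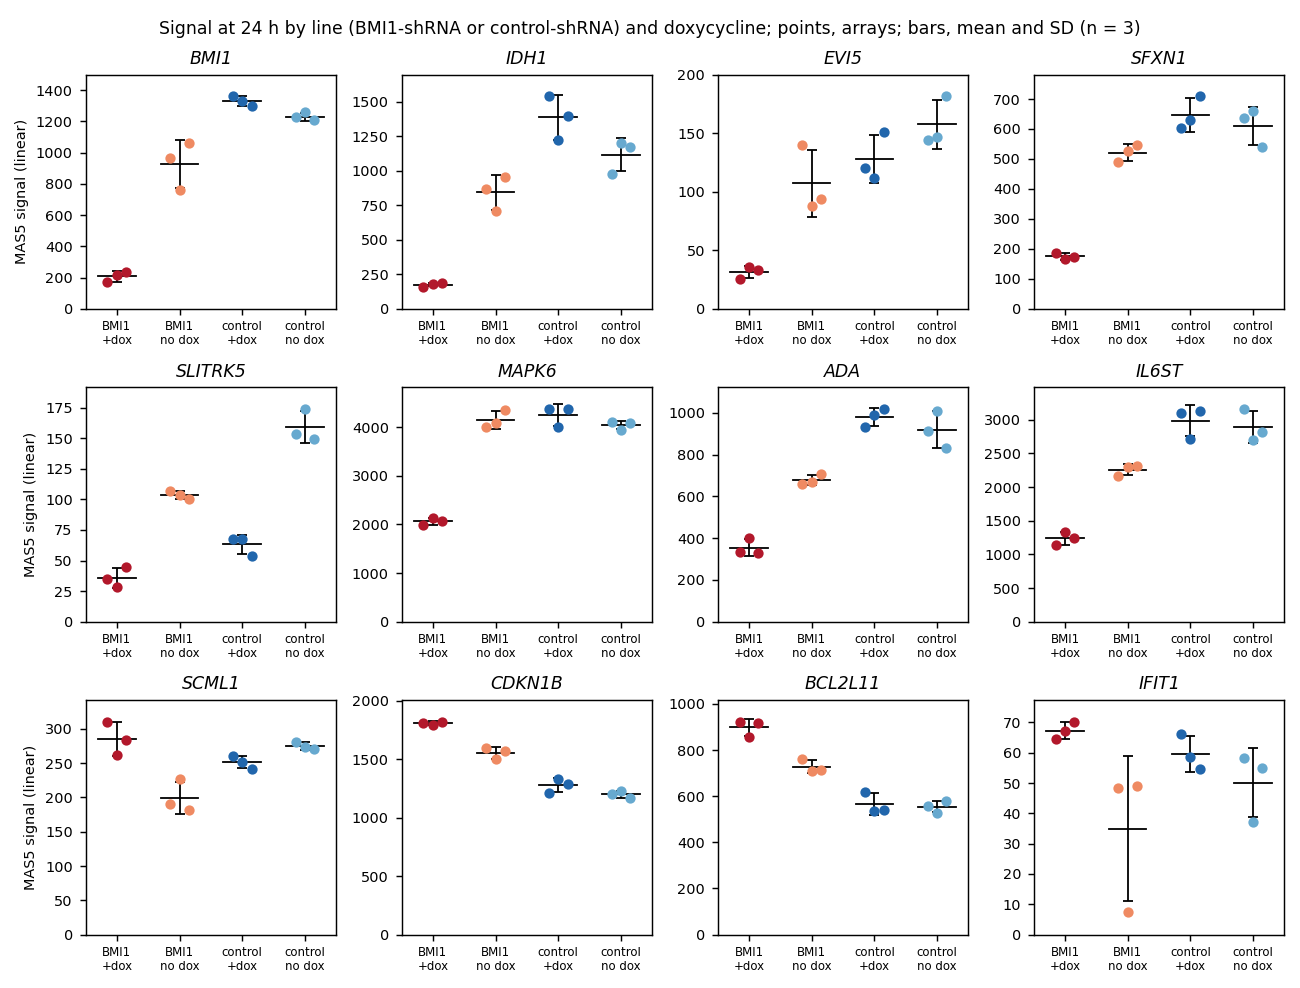
MAS5 signal (linear axis from 0) of 12 genes on the 24 h arrays. Each point is an array, the black line is the mean and the bar the SD of 3 arrays, with the BMI1-shRNA line in reds and the control-shRNA line in blues. BMI1, IDH1, EVI5 and SFXN1 are low only with doxycycline in the BMI1-shRNA line, while SLITRK5 is lower with doxycycline in both lines, and 1 undosed array of IFIT1 stands at 7.4.

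On the log2 scale, IDH1 had the lowest difference of the called genes, below that of BMI1 itself. By the ratio of means, SYT5 (9.96-fold) and RYR3-DT (5.03-fold), both near background, fell further. IDH1 read 160.9, 182.6 and 183.8 in dosed arrays and 866.9, 706.9 and 958.4 in undosed arrays, a 4.802-fold difference (-2.22 ± 0.11, adjusted p = 8.51e-18). A further probe set of the gene gave -2.16 ± 0.06, and a dim one gave -0.64 ± 0.27 without passing the test. In the control-shRNA line IDH1 read 1544, 1221 and 1397 with doxycycline and 979.3, 1199 and 1176 without, in the opposite direction (0.31 ± 0.11) but not past the threshold. SFXN1 read 187.7, 165.4 and 172.7 in dosed arrays and 489.2, 526.8 and 547.4 in undosed arrays, with no overlap (-1.54 ± 0.08, adjusted p = 8.51e-18). A second SFXN1 probe set fell by 1.44, while the third, at 35.9 in dosed and 22.4 in undosed cells, stood at 0.57 ± 0.27. EVI5 read 25.4, 35.5 and 32.9 in dosed arrays and 140.1, 87.7 and 93.8 in undosed arrays (-1.60 ± 0.20, adjusted p = 1.13e-06). Its dosed signals were close to background, and its other probe set, at 17.5 in dosed and 17.1 in undosed cells, showed no fall.

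Signalling and transport genes were among the bright falls. MAPK6, the atypical kinase ERK3, read 1979, 2131 and 2069 in dosed arrays and 4008, 4082 and 4359 in undosed arrays, a 2-fold difference with little spread (-1.01 ± 0.06, adjusted p = 5.83e-16). IL6ST, the gp130 chain that passes on interleukin 6 signals, read 1136, 1328 and 1243 in dosed arrays and 2169, 2303 and 2309 in undosed arrays (-0.87 ± 0.11, adjusted p = 1.01e-06). All 5 of its retained probe sets fell, by 0.49 to 0.91. ADA, the adenosine deaminase of purine salvage, averaged 354 ± 39.4 in dosed and 678 ± 24.8 in undosed cells (SD, n = 3 each; -0.93 ± 0.08). SLC39A10, a zinc importer, averaged 286 ± 9.12 and 577 ± 35.01 (-0.997 ± 0.07), and MRPL10, a protein of the mitochondrial ribosome, 462 ± 17.6 and 893 ± 39.99 (-0.94 ± 0.08). API5, named as an inhibitor of apoptosis, averaged 582 ± 55.2 in dosed and 1060 ± 37.2 in undosed cells (-0.86 ± 0.07), and 4 of its 5 probe sets shared the sign. TP53INP1, a p53-induced gene of autophagy and cell death, averaged 134 ± 5.68 in dosed and 276 ± 40.1 in undosed cells (-1.004 ± 0.15). The remaining members of the 14 lowest bright genes were ASAH2B, related to neutral ceramidase (-1.10 ± 0.16), the adaptor CD2AP (-0.80 ± 0.16), the splicing cofactor RAVER1 (-0.77 ± 0.14) and SLITRK5. The 14 kept their calls when any 1 of the 6 arrays was left out. EVI5 and CD2AP lost theirs when the probe sets of a gene were averaged. The 18 other retained probe sets of the 14 genes shared the sign in 14 cases and passed the test in 9.

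Several rises depended on single arrays. TMEM147-AS1 read 432.6, 369.8 and 445.0 in dosed arrays and 353.1, 94.4 and 194.4 in undosed arrays (1.12 ± 0.22, adjusted p = 0.00206). The undosed arrays ranged widely, and without undosed replicate 2 the difference was 0.65 (adjusted p = 0.0615). IFIT1 read 64.5, 67.2 and 70.3 in dosed arrays and 48.3, 7.4 and 49.1 in undosed arrays (1.12 ± 0.29, adjusted p = 0.0364). A single undosed array was low, and without it the difference was 0.43 (adjusted p = 0.508). PSKH1, a protein kinase, read 150.1, 151.8 and 146.4 in dosed arrays and 91.8, 92.1 and 82.3 in undosed arrays, without overlap (0.72 ± 0.17, adjusted p = 0.0143). CAMKK2, a kinase that activates AMPK, rose by 0.69 ± 0.17 on its brightest probe set, but its 3 other probe sets stood at -0.23, -0.19 and -0.10. ZNRF3, a ubiquitin ligase that removes Wnt receptors, averaged 187 ± 21.9 in dosed and 130 ± 5.15 in undosed cells (SD, n = 3 each; 0.50 ± 0.10, adjusted p = 0.0026). The other bright rises were FAM13A (0.64 ± 0.14), ANKRD9 (0.60 ± 0.14), ANKRD23 (0.57 ± 0.14), CMTM4 (0.54 ± 0.11), PANK1, a pantothenate kinase of coenzyme A synthesis (0.52 ± 0.12), SCML1 (0.51 ± 0.10), R3HDM2 (0.51 ± 0.13), ANGEL2 (0.49 ± 0.10) and ZNF253 (0.47 ± 0.11). Only SCML1, ZNRF3 and ANGEL2 of these 14 kept their calls whichever of the 6 arrays was left out. Of their 15 other retained probe sets, 9 shared the sign and none passed the test over all probe sets.

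Further probe sets of the called genes were read as well. The 160 genes that fell had 221 further retained probe sets, in 110 genes, and 178 of these (80.5%) were below 0, with 49 (22.2%) past the threshold. The 78 genes that rose had 131, in 58 genes, and 94 of these (71.8%) were above 0, with 1 (0.763%) past the threshold. Over all genes with several probe sets, 57.3% of the 13770 further probe sets shared the sign of the brightest and 99 (0.719%) passed the threshold with it. The share past the threshold among the rises was thus near that of all genes. The probe sets of a gene share their RNA samples and are not independent measurements.

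Some calls were of dim genes, where a difference rests on signals near background. SYT5, a synaptotagmin, read 1.2, 0.9 and 2.9 in dosed arrays and 18.3, 14.6 and 16.9 in undosed arrays (-1.65 ± 0.38). EHHADH, an enzyme of peroxisomal fatty acid oxidation, averaged 5.50 and 18.8 (-1.15 ± 0.30), RBFADN 4.80 and 22.9 (-1.49 ± 0.36) and RYR3-DT 3.93 and 19.8 (-1.43 ± 0.39). Among dim rises, LINC00598 averaged 19.7 in dosed and 2.83 in undosed cells (1.65 ± 0.45), and RND1 28.1 and 7.40 (1.46 ± 0.37). IL2RG, the common gamma chain of cytokine receptors, averaged 23.1 and 11.4 (0.93 ± 0.25), and ADCY10P1 36.4 and 18.6 (0.81 ± 0.20). IL2RG read 15.3, 1.5 and 17.5 in undosed arrays, and without undosed replicate 2, the array that was also low for IFIT1 and TMEM147-AS1, its difference was 0.38 (adjusted p = 0.545). In the control-shRNA line ADCY10P1 stood at 0.79. Each of these 8 dim genes lost its call without at least 3 of the 6 arrays in turn.

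Among Polycomb genes, BMI1 fell and SCML1, which encodes a protein related to the PRC1-associated Scm family, rose. SCML1 read 310.8, 261.9 and 283.2 in dosed arrays and 190.3, 226.3 and 181.7 in undosed arrays, without overlap. In the control-shRNA line it read 260.3, 252.0 and 242.3 with doxycycline and 281.0, 274.3 and 270.2 without, so the undosed BMI1-shRNA arrays were the lowest of the 4 groups. Its second probe set stood at 0.35 ± 0.17 without passing the test. The other 20 of 22 PRC1 genes tested did not pass the test. The share called was 9.09% with the hairpin's target counted, against 1.62% of all genes. This list and those below were chosen with earlier results of these data known, so their shares are a description and no test. Over all 40 lists, 34 of 909 genes tested (3.74%) were called. RING1 averaged 643 ± 40.3 in dosed and 576 ± 15.9 in undosed cells (0.16 ± 0.06, adjusted p = 0.233). PCGF2, the closest relative of BMI1, averaged 112 ± 6.12 and 103 ± 5.50 (0.12 ± 0.12, adjusted p = 0.791). RNF2 was not tested, since none of its probe sets was both retained and unique to it. None of 12 PRC2 genes passed, a count near the 1.62% of all genes. EZH2 averaged 1064 ± 36.3 in dosed and 973 ± 33.1 in undosed cells (0.13 ± 0.05, adjusted p = 0.231).

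Classical targets of Polycomb silencing were next. Of 39 HOX genes 17 passed the filter on low signals; none of these passed the test, and their median was 0.01, with values between -1.05 for HOXB2 and 0.77 for HOXC8, both dim genes. Of 56 other developmental regulators 29 passed the filter and none the test (median 0.04). At the 1.62% called over all genes, lists of these sizes would hold less than 1 call, so these counts are near the background. CDKN2A averaged 2857 ± 178 in dosed and 3057 ± 87.8 in undosed cells (SD, n = 3 each; -0.10 ± 0.07, adjusted p = 0.633), and CDKN2B 55.1 ± 4.14 and 53.6 ± 8.84 (0.05 ± 0.22). CDKN2A was thus bright in both groups. CDKN1B, which encodes the cell cycle inhibitor p27, rose slightly: 1814, 1790 and 1823 in dosed arrays, against 1601, 1500 and 1567 in undosed arrays (0.22 ± 0.05, adjusted p = 0.0248). The CDKN1B call was lost without 5 of the 6 arrays in turn and with the replicate number as a block (adjusted p = 0.0525). CDKN1A, encoding p21, averaged 79.1 ± 11.6 and 75.9 ± 16.7 (0.07 ± 0.17).

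**Figure D2:**
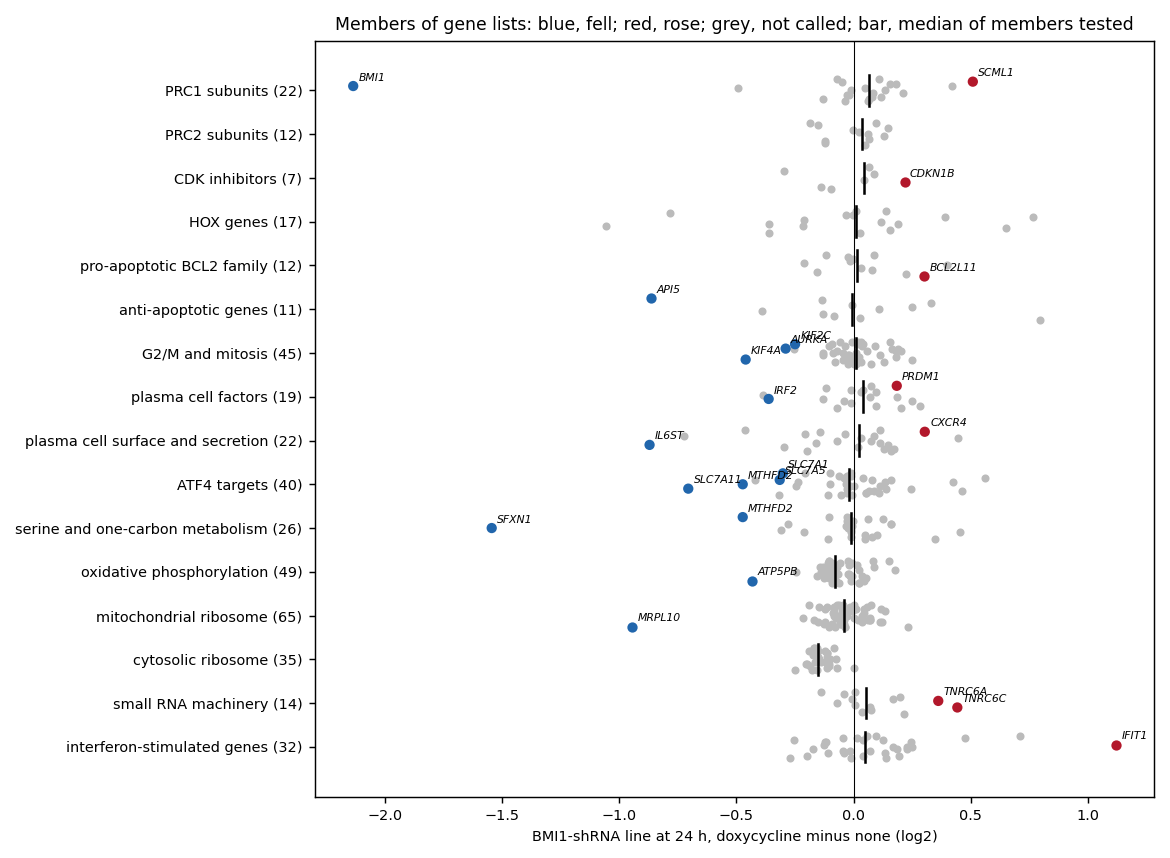
Log2 difference between dosed and undosed cells of the BMI1-shRNA line at 24 h for the members of 16 gene lists, the number tested in brackets. Each point is a gene, blue where it fell, red where it rose and grey where it did not pass the test, and the black bar is the median. Most members lie near 0, BMI1 stands alone at the left of PRC1, and the 35 cytosolic ribosome genes lie below 0 but for 1.

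Of 45 mitotic genes 3 fell (6.67%, against 1.09% of all genes) and none rose, with a median of 0.01: the kinesins KIF4A (605 ± 30.1 in dosed and 834 ± 3.18 in undosed cells, -0.46 ± 0.07, adjusted p = 2.79e-05) and KIF2C (-0.25 ± 0.05, adjusted p = 0.00523), and the kinase AURKA (-0.29 ± 0.06). Of 45 genes of G1/S and replication, only PCNA, the sliding clamp of DNA polymerases, fell (2.22%), at 5402, 5131 and 4853 in dosed arrays and 6251, 6644 and 5977 in undosed arrays (-0.29 ± 0.07, adjusted p = 0.0269). MYC averaged 7324 ± 909 in dosed and 8020 ± 500 in undosed cells, and CCND2, the D cyclin of these cells, 7330 ± 976 and 7218 ± 313, and neither passed the test. The AURKA and KIF2C calls were each lost without 2 of the 6 arrays in turn, and that of PCNA without 4. The mean of the AURKA probe sets gave -0.14, not past the threshold. None of 26 genes in the list of MYC and its targets passed, against 1.62% of all genes. BTG1, an antiproliferative gene, rose by 0.36 ± 0.10 (adjusted p = 0.0421), a call lost without any 1 of the 6 arrays.

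Of 12 pro-apoptotic BCL2 family genes, only BCL2L11, which encodes BIM, rose (8.33%, against 0.53% of all genes). It read 923.4, 855.6 and 915.5 in dosed arrays, against 760.3, 710.7 and 714.3 in undosed arrays. The arrays did not overlap, the means were 1.23-fold apart, and the difference was 0.30 ± 0.08 (adjusted p = 0.0364). All 7 BCL2L11 probe sets lay above 0, but the call was lost without any 1 of the 6 arrays (adjusted p of 0.0542 to 0.148) and as the mean of its probe sets (0.19, adjusted p = 0.402). The control-shRNA line gave 0.03 for BCL2L11, and the difference between the lines was 0.27 ± 0.11 (adjusted p = 0.605). PMAIP1, encoding NOXA, averaged 705 ± 11.2 in dosed and 665 ± 76.0 in undosed cells (0.09 ± 0.08). BCL2 averaged 299 ± 20.5 and 300 ± 9.30, and MCL1, a main survival factor of myeloma cells, 1022 ± 102 and 1081 ± 33.2. Of 11 anti-apoptotic genes, API5 alone fell (9.09%, against 1.09% of all genes).

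Of 19 plasma cell factors 2 passed the test (10.5%, against 1.62% of all genes), in opposite directions. PRDM1, encoding BLIMP1, rose by 0.18 ± 0.05 (adjusted p = 0.0457) and IRF2, an interferon regulatory factor, fell by 0.36 ± 0.08 (adjusted p = 0.0142). Both moved alike in the control-shRNA line, where the differences were 0.18 for PRDM1 and -0.30 for IRF2, below the threshold. The PRDM1 call was lost without any 1 of the 6 arrays, and the mean of its probe sets gave -0.034. The IRF2 call was lost without 2 of the 6. IRF4 averaged 1388 ± 44.5 in dosed and 1350 ± 79.2 in undosed cells (0.04 ± 0.06), and XBP1 2145 ± 94.1 and 2163 ± 152. Of 22 surface and secretory genes 2 passed (9.09%): IL6ST fell and CXCR4, the chemokine receptor that retains cells in bone marrow, rose. CXCR4 read 1979, 2079 and 2465 in dosed arrays and 1932, 1640 and 1701 in undosed arrays (0.30 ± 0.08, adjusted p = 0.0404). The groups lay close together, and the call was lost without 4 of the 6 arrays in turn. The interleukin 6 receptor gene IL6R averaged 730 ± 30.0 and 675 ± 23.7, without passing the test.

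Of 40 ATF4 targets, genes of amino acid supply among them, 4 fell (10%, against 1.09% of all genes) and none rose: SLC7A11, the cystine carrier (99.5 ± 6.05 in dosed and 168 ± 32.5 in undosed cells, -0.71 ± 0.14), MTHFD2, a mitochondrial folate enzyme (2934 ± 106 and 4075 ± 100, -0.47 ± 0.08, adjusted p = 3.21e-04), and the amino acid carriers SLC7A5 (-0.32 ± 0.07) and SLC7A1 (-0.30 ± 0.05). The median of the list was -0.02. The SLC7A5 call was lost without 3 of the 6 arrays in turn. SLC7A11 (-0.42) and SLC7A1 (-0.19) lost theirs when the probe sets of a gene were averaged. In the serine and one-carbon list SFXN1 and MTHFD2 were the 2 calls among 26 genes (7.69%). PDIA4, a disulfide isomerase of the endoplasmic reticulum, read 1012, 1120 and 1119 in dosed arrays and 1584, 1821 and 2018 in undosed arrays (-0.73 ± 0.08, adjusted p = 9.60e-08). It was the only call among 30 genes of the unfolded protein response (3.33%). LSS, lanosterol synthase, averaged 1547 ± 21.2 and 2189 ± 65.7 (-0.50 ± 0.07, adjusted p = 2.79e-05). It was the only call among 20 cholesterol synthesis genes (5%).

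The large housekeeping lists had calls at about the share of all genes (1.09% lower). ATP5PB, a subunit of ATP synthase, fell by 0.43 ± 0.09 (adjusted p = 0.00438) as the only call among 49 genes of oxidative phosphorylation (2.04%), and MRPL10 was the only one among 65 of the mitochondrial ribosome (1.54%). No cytosolic ribosome gene passed the test, but 1 of 35 lay above 0 and the median was -0.15, against 55.5% of all genes above 0 and a median of 0.02. In the control-shRNA line the same list had a median of 0.05. Other housekeeping lists leaned below 0 as well. Of 34 proteasome genes 4 lay above 0 (median -0.09), and of 49 genes of oxidative phosphorylation 11 (-0.08). For the mitochondrial ribosome it was 19 of 65 (-0.04). The lists of autophagy (20 of 43) and glycolysis (15 of 33) were more even. The cause was not tested. UVRAG, an autophagy gene, fell by 0.33 ± 0.07 and PSMD3, of the proteasome, by 0.24 ± 0.06, the PSMD3 call being lost without any 1 of the 6 arrays. ICAM1, an adhesion molecule induced by NF-kB, fell by 0.39 ± 0.06 (adjusted p = 1.48e-04), the only call among 23 genes of that pathway (4.35%). None of 33 glycolysis and hypoxia genes, 22 histone genes and 11 genes of the MAF programme passed, against 1.62% of all genes. Of 32 interferon-stimulated genes IFIT1 alone rose (3.125%, against 0.53% of all genes). Of 14 genes of the small RNA machinery, TNRC6A (782 ± 20.4 in dosed and 608 ± 34.0 in undosed cells, 0.36 ± 0.09) and TNRC6C (75.8 ± 7.09 and 54.4 ± 6.55, 0.44 ± 0.12), both partners of Argonaute proteins, rose. They were 14.3% of the list, against 0.53% of all genes that rose. In the control-shRNA line TNRC6A and TNRC6C stood at 0.07 and 0.01. The TNRC6C call was lost without 4 of the 6 arrays in turn and that of TNRC6A without 3, and the means of their probe sets gave 0.04 for TNRC6C and 0.24 for TNRC6A, neither past the threshold.

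The control-shRNA line tested whether doxycycline and a control hairpin moved genes. Without doxycycline the lines already differed in some genes at 24 h. IL2RG averaged 285 in the control-shRNA and 11.4 in the BMI1-shRNA line, and CCND2 3178 and 7218. MAPK6 was alike, at 4042 and 4150. The part of such differences in the results was not tested. In the control-shRNA line 6 genes of 14705 passed the test of doxycycline (0.0408%, or 553 at an unadjusted p under 0.05, against 1640 in the BMI1-shRNA line). MATK, a dim kinase gene, was the 1 higher gene (0.0068%), at 39.0, 40.1 and 29.2 against 2.1, 1.2 and 20.5 without. The 5 lower genes (0.034%) were SLITRK5, a transmembrane protein known from neurons, SLC18B1, a vesicular polyamine carrier, and CWC27, CHPT1 and ING3. SLITRK5 read 67.7, 67.6 and 54.1 with doxycycline in the control-shRNA line and 153.6, 174.2 and 149.4 without (-1.27 ± 0.16, adjusted p = 1.48e-05). In the BMI1-shRNA line it read 34.8, 28.1 and 44.7 in dosed arrays and 106.7, 103.6 and 100.4 in undosed arrays (-1.42 ± 0.16). The difference between the lines was -0.15 ± 0.23 and did not pass the test. SLC18B1 likewise fell in both, by 0.48 ± 0.08 in the BMI1-shRNA line and by 0.81 ± 0.08 in the control-shRNA line, as did CWC27, by 0.29 ± 0.07 and 0.55 ± 0.07. These 3 were the genes called in both lines. The CWC27 call in the BMI1-shRNA line was lost without 5 of the 6 arrays in turn. The calls of MATK, CHPT1 and ING3 were lost without 4, 4 and 6 of the 6 arrays in turn. Without control dosed replicate 1 or without replicate 2, the control-line count was 3. After quantile normalization 2 of 6 genes were higher, against 1 of 6.

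**Figure D3:**
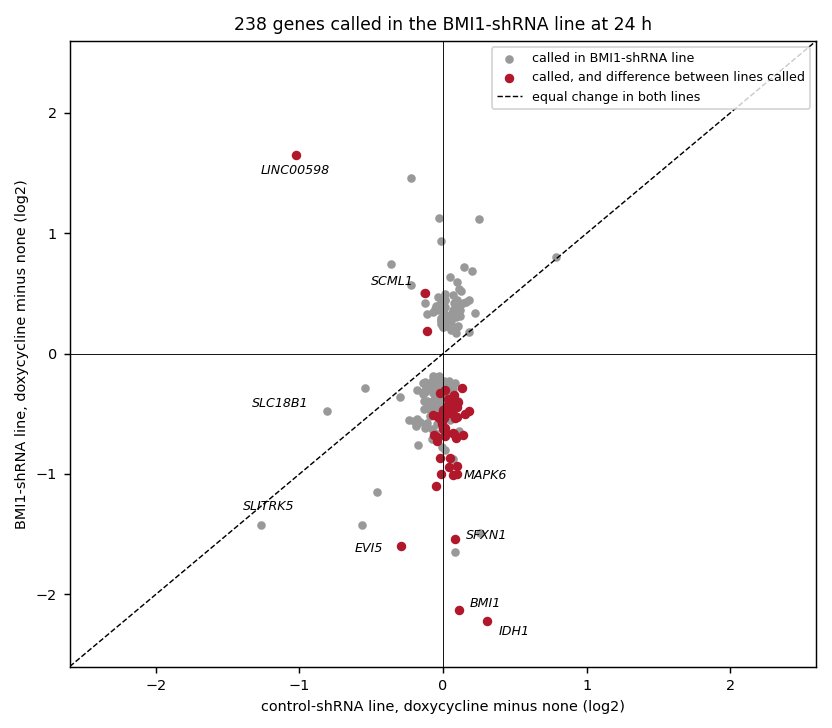
All 238 calls of the 24 h comparison with the BMI1 hairpin, with their log2 difference in the control-shRNA line (x axis) against that in the BMI1-shRNA line (y axis). Red points also passed the test of the difference between the lines, and the dashed line marks equal change. SLITRK5 lies near the dashed line at -1.27 and -1.42, while IDH1, BMI1 and SFXN1 lie far below it.

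The difference between the lines, the effect of doxycycline with the BMI1 hairpin minus that with the control hairpin, passed the test for 55 genes (0.374%), 3 higher (0.0204%) and 52 lower (0.354%). This comparison shares its BMI1-shRNA arrays with the one above, so the values are given side by side and are no separate evidence. IDH1 stood at -2.53 ± 0.15, BMI1 at -2.25 ± 0.14, SFXN1 at -1.63 ± 0.11 and EVI5 at -1.31 ± 0.28 (adjusted p = 0.0167). MAPK6 stood at -1.08 ± 0.08, ADA at -1.03 ± 0.11 and IL6ST at -0.92 ± 0.15. Of the 14 bright falls, 11 passed and SLITRK5, CD2AP and RAVER1 did not. Of the 14 bright rises, SCML1 alone passed (0.64 ± 0.14, adjusted p = 0.0181). The other higher genes were NETO2, an auxiliary subunit of glutamate receptors (0.30 ± 0.07), and LINC00598 (2.68 ± 0.63). NETO2 averaged 570 ± 8.14 in dosed and 500 ± 7.17 in undosed cells of the BMI1-shRNA line, and 620 ± 17.6 and 671 ± 3.76 in the control-shRNA line. LINC00598 read under 30 on all of these arrays, and its undosed control-line values were 5.4, 18.3 and 28.1. Over the 12 arrays left out in turn, the call of the difference was lost 5 times for SCML1 and EVI5, 6 times for ASAH2B, 9 for NETO2 and 10 for LINC00598. Over the 160 falls the median in the control-shRNA line was -0.01 and 55.0% were below 0 there. Over the 78 rises it was 0.04 and 69.2% were above 0, against 51.8% of all genes.

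Separate arrays at 32 and 48 h, which the labels do not name as separate cultures, showed how the 24 h changes lasted. Of the 160 genes that fell at 24 h, 123 (76.9%) had also fallen at 32 h and 135 (84.4%) at 48 h, with medians of -0.49 and -0.61 beside -0.41 at 24 h. These were 49.8% of the 247 falls at 32 h (1.68% of genes tested) and 23.6% of the 571 falls at 48 h (3.88%). Of the 78 genes that rose, 14 (17.9%) had also risen at 32 h and 23 (29.5%) at 48 h, with medians of 0.12 and 0.21 beside 0.36 at 24 h. They were 18.2% of the 77 rises at 32 h (0.524%) and 10.6% of the 217 at 48 h (1.48%). A total of 119 falls and 11 rises passed at all 3 times, and 21 falls and 52 rises passed at 24 h but at neither later time. In all, 324 genes passed at 32 h (2.2%) and 788 at 48 h (5.36%). The 3 time points share 1 estimate of variance but no arrays.

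The 14 bright falls had fallen at 48 h as well. IDH1 stood at -2.22, -2.38 and -2.71 at 24, 32 and 48 h, SFXN1 at -1.54, -2.01 and -2.39, and BMI1 at -2.13, -2.52 and -2.65. ADA stood at -0.93, -1.12 and -1.65, and MAPK6 at -1.01, -1.12 and -1.46. ASAH2B stood at -1.10, -0.95 and -0.96 and RAVER1 at -0.77, -0.80 and -0.74, with no steady increase. Of the 14 bright rises 1 had risen at 48 h, SCML1, which stood at 0.51, 0.69 and 0.74. PSKH1 stood at 0.72, 0.23 and 0.14, CAMKK2 at 0.69, -0.08 and 0.14, and TMEM147-AS1 at 1.12, -0.11 and 0.15. For each of these genes the undosed BMI1-shRNA arrays had the lowest mean among the 24 h groups of both lines. The undosed means at 24 and 48 h were 88.7 and 114 for PSKH1, 369 and 734 for CAMKK2, and 214 and 334 for TMEM147-AS1. The dosed means were 149 and 127, 608 and 813.5, and 416 and 372. The part of the low undosed signals in these rises was not tested. BCL2L11 stood at 0.30, 0.36 and 0.52 and passed the test at each time, though its 24 h call was lost without any 1 of the 6 arrays.

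**Figure D4:**
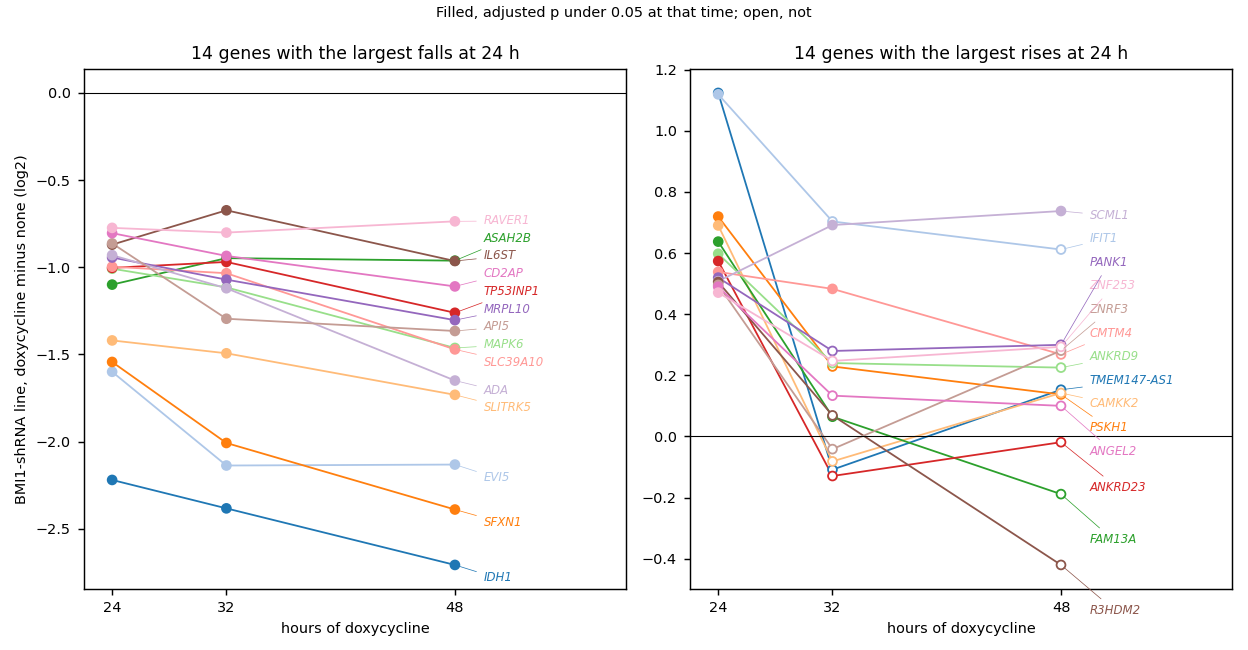
Log2 difference between dosed and undosed cells of the BMI1-shRNA line after 24, 32 and 48 h for the 14 largest bright falls (left) and rises (right) at 24 h. Filled points passed the test at that time and open points did not. The falls stay filled and below -0.6 at every time, while SCML1 is the only rise still filled at 48 h.

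Whether the effect at 48 h differed from that at 24 h was tested directly, with 72 genes (0.49%) past the threshold, 12 higher (0.0816%) and 60 lower (0.408%) at 48 h. For 32 h against 24 h none passed (limma, 915 at an unadjusted p under 0.05). SFXN1 went further down by 0.85 ± 0.11 (adjusted p = 3.33e-05), since it averaged 110 ± 5.26 in dosed and 599 ± 49.95 in undosed cells at 48 h (SD, n = 3 each). MT1E, a metallothionein, did not pass the test at 24 h (304 ± 11.95 in dosed and 318 ± 19.0 in undosed cells) and at 48 h averaged 168 ± 18.2 in dosed and 361 ± 17.95 in undosed cells, a change in effect of -1.02 ± 0.17. ID3, an inhibitor of helix-loop-helix factors, stood at 0.28 at 24 h and -0.66 at 48 h, and RNF144B, a ubiquitin ligase gene induced by p53, at -0.31 and -1.24. R3HDM2 stood at 0.51 at 24 h and -0.42 at 48 h, and FAM13A at 0.64 and -0.19. In the other direction, ENC1 stood at -0.14 at 24 h and 0.57 at 48 h, the glutamine carrier SLC38A5 at -0.30 and 0.31, the steroid sulfatase STS at 0.34 and 0.89, ARHGAP11A at -0.43 and 0.35, PITHD1 at -0.08 and 0.46, and C19orf53 at -0.21 and 0.24. Over the 12 arrays left out in turn, calls were lost 9 times for FAM13A and RNF144B, 7 for ID3, 6 for ARHGAP11A and 3 for PITHD1. The count was 39 without undosed 24 h replicate 2, 46 without dosed 24 h replicate 2 and 47 without undosed 48 h replicate 2.

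Promoter sequence was set beside the calls as a description. RefSeq promoters (GRCh38.p14, 250 bases before to 50 after a start) matched 136 of the genes that fell, with 190 starts, 65 of the genes that rose, with 96 starts, and 11733 genes tested, with 16793 starts. The E-box CACGTG was present in 29 of the 190 promoters of falls (15.3%) and 8 of the 96 of rises (8.33%), against 8.99% of the promoters of genes tested. The GC box GGGCGG, on either strand, was present in 72.1% and 62.5%, against 62.0%, and CCAAT in 34.2% and 35.4%, against 34.7%. The median number of CpG was 27 and 25.5, against 24. Starts of a gene overlap in part, and a match is a run of letters, not a bound site. The 4 promoters printed here are each from a gene with 1 listed start. SFXN1 was the lowest such fall among the named genes. TMF1 and MAPRE1 were the lowest falls with an E-box after BMI1, the hairpin's target, which counts among them. Both were chosen after their values were seen. SCML1 was the bright rise that passed at all 3 times. Matches to the 3 motifs on either strand are in capitals.
SFXN1: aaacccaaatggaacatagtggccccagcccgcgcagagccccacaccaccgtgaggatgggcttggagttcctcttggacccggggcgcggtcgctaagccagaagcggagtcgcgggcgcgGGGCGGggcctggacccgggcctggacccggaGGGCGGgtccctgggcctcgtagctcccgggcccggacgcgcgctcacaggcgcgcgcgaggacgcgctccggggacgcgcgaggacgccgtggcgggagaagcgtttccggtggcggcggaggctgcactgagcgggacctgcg
TMF1: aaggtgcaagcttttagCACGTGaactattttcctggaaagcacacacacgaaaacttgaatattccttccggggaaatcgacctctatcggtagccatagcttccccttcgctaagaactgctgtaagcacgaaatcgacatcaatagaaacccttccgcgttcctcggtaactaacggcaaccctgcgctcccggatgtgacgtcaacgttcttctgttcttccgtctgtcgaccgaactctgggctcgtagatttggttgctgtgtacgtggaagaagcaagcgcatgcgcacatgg
MAPRE1: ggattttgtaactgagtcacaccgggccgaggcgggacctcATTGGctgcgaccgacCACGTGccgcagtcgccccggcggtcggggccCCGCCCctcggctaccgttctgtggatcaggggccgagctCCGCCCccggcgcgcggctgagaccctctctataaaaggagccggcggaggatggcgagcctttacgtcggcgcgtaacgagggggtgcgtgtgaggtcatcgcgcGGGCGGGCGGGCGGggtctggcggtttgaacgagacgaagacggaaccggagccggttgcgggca
SCML1: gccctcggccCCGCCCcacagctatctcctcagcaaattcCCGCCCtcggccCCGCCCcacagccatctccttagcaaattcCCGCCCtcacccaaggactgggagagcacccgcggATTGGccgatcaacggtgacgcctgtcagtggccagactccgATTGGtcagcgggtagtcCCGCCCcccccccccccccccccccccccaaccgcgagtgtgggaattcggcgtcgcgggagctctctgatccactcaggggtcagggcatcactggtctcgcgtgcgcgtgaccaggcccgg
The SFXN1 promoter lies at chr5:175478310-175478609 on the plus strand and holds 2 GC boxes and 41 CpG. The TMF1 promoter lies at chr3:69052284-69052583 on the minus strand and holds 1 E-box. TMF1, a Golgi protein, fell by 0.70 ± 0.11. The MAPRE1 promoter lies at chr20:32819704-32820003 on the plus strand and holds 1 E-box, 1 CCAAT box and 5 GC boxes. MAPRE1, which encodes the microtubule end-binding protein EB1, fell by 0.67 ± 0.06. The SCML1 promoter lies at chrX:17737243-17737542 on the plus strand and holds 2 CCAAT boxes, both in the reverse orientation, and 5 GC boxes.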

How the data were processed

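Each sample of total RNA was hybridized to its own Affymetrix U133 Plus 2 array. The authors deposited linear intensity values per probe set, MAS5 signals per the submitters' processing notes, whose version is not given in the sources used here. Means trimmed by 2% on either side were 150.02 to 150.03, a common scale. Arrays have no read depth, and 3 arrays per group limit the precision. Of 54675 probe sets, 62 controls were left out, 41091 had a single gene symbol in the platform annotation, 1801 several and 11721 none. Probe sets at or above the array median on at least 3 of 42 arrays were retained (35232), and the brightest of each gene gave 14705 genes. The probe set of BMI1, annotated also to COMMD3-BMI1, was kept as BMI1.

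A limma 3.58.1 model (R 4.3.3) with 14 group means was fitted to log2(value + 5.4), the 25th percentile of all values being 5.4, with an intensity trend, 28 residual and 8.62 prior degrees of freedom. Tests were two-sided and adjusted over all genes. Fold changes on this scale understate the change of dim genes. The 0 h arrays, whose labels conflict, entered only the variance.

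The members, the 40 gene lists and the tests were chosen with earlier results of these data known. Named genes are BMI1, the 14 lowest and 14 highest called genes with signals of at least 50 and no overlap, 4 dim calls in each direction, the calls of the control line, the 10 lowest and all higher calls of the line difference, 6 genes in each direction of the time difference, up to 4 calls per list and 15 genes always given. Same-numbered arrays were not paired: deviations of dosed and undosed arrays correlated at 0.005 to 0.022 for the same number and -0.02 to 0.003 for different numbers. On simulated data with 14705 genes the 24 h comparison found 44% of genes moved by 0.5 and 62% of those moved by 1 (log2). Alternatives were pseudocounts of 1 and the median, quantile normalization, the filter dropped or set at the 75th percentile, probe sets averaged or used singly, no trend, fewer arrays in the fit, a replicate block and each array left out.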

Additional observations from a re-analysis of the deposited data

Results flagged for a closer look

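Effects that differed between the 2 lines at 24 h, by the limma test of the difference (BMI1-shRNA minus control-shRNA line, log2), are listed here for the named genes. Among metabolic and transport genes they were IDH1 at -2.53, SFXN1 at -1.63, ASAH2B at -1.05, ADA at -1.03, SLC39A10 at -0.99, MTHFD2 at -0.65, LSS at -0.65 and SLC7A1 at -0.31. Among genes of signalling, folding, division and survival they were EVI5 at -1.31, TP53INP1 at -1.10, MAPK6 at -1.08, IL6ST at -0.92, API5 at -0.84, PDIA4 at -0.69 and KIF4A at -0.49. MRPL10 stood at -0.99 and BMI1 at -2.25. The positive differences were SCML1 at 0.64, NETO2 at 0.30 and LINC00598 at 2.68, the last from signals under 30. The SLC7A1 call was lost without 5 of the 12 arrays in turn.

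Effects that differed between times in the BMI1-shRNA line (48 h minus 24 h, log2) were, on the negative side, MT1E at -1.02, ID3 at -0.94, RNF144B at -0.93, R3HDM2 at -0.93, SFXN1 at -0.85, FAM13A at -0.83, ADA at -0.72, API5 at -0.5, SLC39A10 at -0.47, MAPK6 at -0.45 and UVRAG at -0.41. On the positive side they were SYT5 at 2.32, from signals near background, ARHGAP11A at 0.79, ENC1 at 0.72, SLC38A5 at 0.61, STS at 0.55, PITHD1 at 0.54, C19orf53 at 0.45, PSMD3 at 0.38 and NETO2 at 0.36. Over the 12 arrays left out in turn, the call of the difference between times was lost 10 times for UVRAG, 9 for SYT5, 5 for SLC39A10 and 4 for PSMD3. Groups of 3 arrays are too small for a test of single outlying samples.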

How the results depend on the processing

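BMI1 kept its direction and its call in every alternative run, between -2.27 and -1.997 at 24 h and between -2.38 and -2.11 for the difference between lines. The 24 h count of 238 ranged over 139 to 165 when 1 array was left out (23 to 47 rises, against 78), and over 163 (mean of probe sets) to 316 (every probe set as a feature, 64 higher and 252 lower) in the other settings. Quantile normalization gave 256 (78 higher, 178 lower). Leaving out 1 array gave 3 to 6 calls in the control line, 42 to 52 for the difference between lines and 39 to 66 for 48 h against 24 h. With the mean of probe sets the control line had 3 calls, the difference between lines 33, and PRDM1 turned to -0.034. Of 64 named genes called at 24 h, 37 lost the call without some array, 30 in some other setting and 22 in neither. For the difference between lines 13 of 20 named calls never lost theirs, and for 48 h against 24 h 9 of 20. The cause was not tested. A fit of 48 h against 24 h to 24 h arrays alone could not be made.

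With the replicate number as a block the counts were 201 at 24 h, 5 in the control line, 49 for the difference between lines and 61 for 48 h against 24 h. Of the named calls, 9 were lost under the block at 24 h (adjusted p of 0.0524 to 0.0899): CDKN1B, PCNA, PRDM1, CAMKK2, TNRC6C, NETO2, IL2RG, EHHADH and RYR3-DT. In the control line ING3 was lost, for the difference between lines NETO2 and SLC7A1, and for 48 h against 24 h SYT5, FAM13A, RNF144B, ARHGAP11A and UVRAG. Each dosed array correlated best with its own number, at r of 0.005 to 0.022, a hint from the data and not from the design.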
